A study of Mus musculus with 9 samples.

Results

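The genes described here are 10 autosomal genes: Kdm6b, which encodes the close relative of the histone demethylase KDM6A, and 9 genes for subunits of the histone methyltransferase complex in which KDM6A works. They were chosen by what they encode and not by a measured value, and they were 10 of 21883 protein-coding genes with a position in the RefSeq table of mouse assembly GRCm38.p6, the same build as mm10. Each gene was given a window of its own span plus 5 kb on each side, and every deposited interval that overlapped the window by at least 1 bp was taken as an interval of that gene. Across the 4 KDM6A libraries the windows held 87 intervals, of which 50 lay at Kmt2c, 18 at Ncoa6 and 19 at the other genes.

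The study used chromatin immunoprecipitation with sequencing (ChIP-seq), which recovers DNA bound by a protein with an antibody, to map KDM6A in Sv129 mouse embryonic stem cells. The control group was 2 anti-KDM6A libraries from cells labelled WT. The MTX group was 2 anti-KDM6A libraries from cells given 0.12 µM MTX for 24 h, to which the labels give the genotype folate deficiency. A further library was an immunoprecipitation with IgG, a nonspecific antibody, from MTX cells. No IgG library of control cells and no interval lists for the 4 inputs were analysed here. The labels enter neurodevelopment as the treatment of all 9 samples and name no other allele or agent. The labels do not say whether the 2 libraries of a group had cultures of their own, so their spread may be technical.

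The 5 lists held 21228 to 44838 intervals, with control 1 the longest and control 2 the shortest. Reads inside intervals numbered 3251202 to 4192029 per library, the full depth is unknown, and a typical interval had a median of 79 to 130 immunoprecipitated reads. Each interval carried the authors' fold, which is immunoprecipitated over background reads scaled by 1 constant per list. The median fold was 1.39 to 1.62 in the KDM6A lists and 1.49 in the IgG list. The chromosomes X and Y held almost no intervals, with 20 or fewer on X in every list.

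KDM6A and KDM6B remove methyl groups from lysine 27 of histone H3 (H3K27), a mark of repressed genes. KMT2C and KMT2D are large methyltransferases that place a single methyl group on lysine 4 of histone H3 (H3K4), a mark of enhancers, and KDM6A is a subunit of the complexes they form. NCOA6, PAXIP1 and PAGR1 are subunits found with KMT2C and KMT2D, whereas WDR5, RBBP5, ASH2L and DPY30 form the core that all methyltransferases of the KMT2 family share. Embryonic stem cells use these enzymes when enhancers and developmental genes change state during differentiation.

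Promoter windows of 8 of the 10 genes were in the RefSeq promoter table (GRCm38.p6), which gives 250 bases before and 50 after each start site. Kdm6b and Ash2l had no entry. The 4 sequences below are promoters that were covered by an interval in 1 library, and they are shown to compare a CG-rich with a CG-poor window. The Ncoa6 window belongs to an inner start site of the table, at 155440783, since the gene's span runs on to 155473911. They are printed 5′ to 3′ on the gene's strand, with every CG in capitals: Kmt2c at chr5:25498734-25499033 (minus strand), Ncoa6 at chr2:155440734-155441033 (minus strand), Wdr5 at chr2:27514897-27515196 (plus strand) and Rbbp5 at chr1:132477117-132477416 (plus strand).
Kmt2c: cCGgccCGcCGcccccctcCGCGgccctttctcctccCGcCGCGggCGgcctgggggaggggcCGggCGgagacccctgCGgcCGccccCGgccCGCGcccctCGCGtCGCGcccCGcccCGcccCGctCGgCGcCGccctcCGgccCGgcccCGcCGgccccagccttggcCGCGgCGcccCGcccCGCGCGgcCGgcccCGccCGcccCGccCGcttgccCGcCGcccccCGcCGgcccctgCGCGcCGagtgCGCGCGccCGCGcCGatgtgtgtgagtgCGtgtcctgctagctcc
Ncoa6: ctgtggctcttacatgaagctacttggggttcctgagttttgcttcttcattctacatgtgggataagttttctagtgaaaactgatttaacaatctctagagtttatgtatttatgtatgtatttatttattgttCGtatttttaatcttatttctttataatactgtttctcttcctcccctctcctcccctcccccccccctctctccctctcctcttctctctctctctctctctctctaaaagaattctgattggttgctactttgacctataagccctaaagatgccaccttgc
Wdr5: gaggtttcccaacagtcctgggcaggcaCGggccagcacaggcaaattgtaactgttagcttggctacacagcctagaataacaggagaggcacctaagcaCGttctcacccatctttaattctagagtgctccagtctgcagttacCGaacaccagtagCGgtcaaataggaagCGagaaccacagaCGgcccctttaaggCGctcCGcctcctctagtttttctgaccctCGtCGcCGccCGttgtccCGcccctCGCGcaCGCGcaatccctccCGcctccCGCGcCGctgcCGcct
Rbbp5: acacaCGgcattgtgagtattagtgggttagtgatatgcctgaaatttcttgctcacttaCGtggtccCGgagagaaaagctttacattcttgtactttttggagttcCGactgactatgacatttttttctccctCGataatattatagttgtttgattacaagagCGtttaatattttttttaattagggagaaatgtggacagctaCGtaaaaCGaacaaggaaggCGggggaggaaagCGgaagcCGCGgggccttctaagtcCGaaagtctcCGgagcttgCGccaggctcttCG

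The Kmt2c window held 56 CG in 300 bases and was 88% G or C, and only 0.24% of 21262 promoter windows held as many CG. The Ncoa6 window held 1 CG and was 39.3% G or C, and 95.4% of windows held at least as many. Wdr5 had 22 CG and Rbbp5 had 16, both above the median of 13 over all windows. The GC box, searched as GGGCGG and as CCGCCC for the other strand, matched 10 times in the Kmt2c window and 2 times in the Wdr5 window. It had no match in the Ncoa6 and Rbbp5 windows, and 46.2% of all promoter windows held at least 1 match. These are matches of letters and not measured binding.

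Of the 8 genes with a promoter window, 2 had an interval at a start site in control 1, 0 in control 2, 1 in MTX 1, 0 in MTX 2 and 2 in IgG. Control 1 had intervals at the inner Ncoa6 window and at Dpy30, MTX 1 at the promoter of Wdr5, and IgG at those of Kmt2c and Rbbp5, whereas control 2 and MTX 2 had none at any of the 8. The Dpy30 interval lay at 3 inner start sites, with 30, 34 and 39 CG, and not at the outermost one. Among 17491 genes in the promoter table, 10.8% had a promoter interval in control 1, 2.78% in control 2, 7.83% in MTX 1, 3.32% in MTX 2 and 5.57% in IgG. No promoter of the set had an interval in more than 1 library. The CG-rich Kmt2c start was covered in the IgG list alone, by an interval at 25497001 to 25500200 with 110 immunoprecipitated and 81 background reads (fold 1.41).

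Over the whole windows, 9 of the 10 genes had an interval in control 1 (Pagr1a was the exception) and 2 had one in control 2 (Kmt2c and Ncoa6). In MTX 1 there were 5 (Kdm6b, Kmt2c, Ncoa6, Paxip1 and Wdr5) and in MTX 2 there were 4 (Kmt2c, Ncoa6, Wdr5 and Ash2l). The IgG library had 6 (Kdm6b, Kmt2c, Ncoa6, Wdr5, Rbbp5 and Ash2l). Of all protein-coding genes, 47.1% had an interval in a window made the same way in control 1, 26.1% in control 2, 33.5% in MTX 1, 30.8% in MTX 2 and 27.5% in IgG. Kmt2c and Ncoa6 were the members with an interval in every library, and both are long genes.

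Long windows meet more intervals, so the members were set beside genes of like length. Kmt2c (227 kb) and Ncoa6 (83.3 kb) were the 2 members over 60 kb, and at that length 82% of genes had an interval in control 1, 57.8% in control 2, 65.9% in MTX 1, 66.5% in MTX 2 and 58.6% in IgG. The 7 members of 20 to 60 kb were all hit in control 1 (7 of 7) and never in control 2 (0 of 7), with 3 hit in MTX 1, 2 in MTX 2 and 4 in IgG. The share of all genes of that length was 56% in control 1, 30.6% in control 2, 38.4% in MTX 1, 36.5% in MTX 2 and 30.2% in IgG. Pagr1a, at 2.30 kb the shortest, had none in any library, and among genes under 20 kb the share with an interval was 30.4%, 12.7%, 19.6%, 15.5% and 15.3% in the same order of libraries. The 7 genes of middle length therefore ranged from all to none between the 2 control libraries, the widest gap between any 2 KDM6A libraries.

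**Figure D1:**
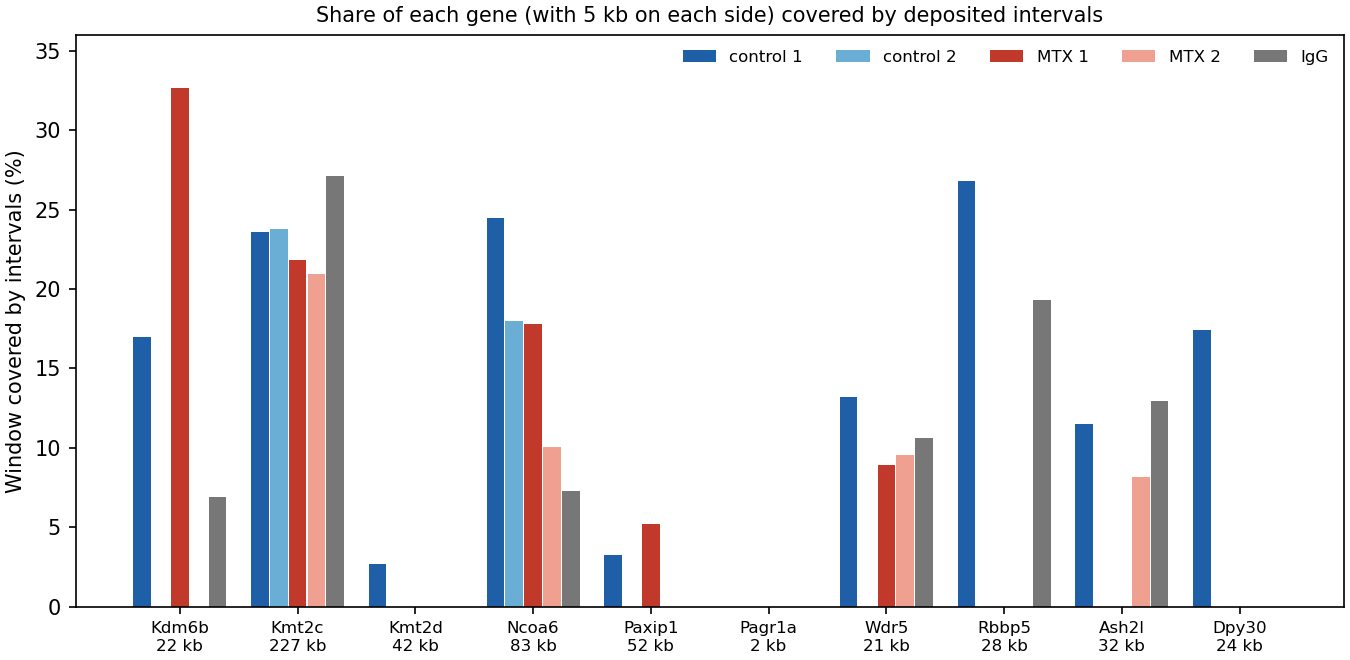
Share of each gene's window (span plus 5 kb on each side) covered by intervals, in percent, for the 10 genes in the 4 KDM6A libraries and the IgG library. Kmt2c is covered over 20.9% to 27.1% of its window in all 5 libraries, and Pagr1a is not covered in any.

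The number of the 10 genes with an interval was 5.5 ± 4.95 in control and 4.5 ± 0.71 in MTX libraries (SD, n = 2 each). The number of intervals at them was 26.5 ± 12.0 in control (35 and 18) and 17 ± 4.24 in MTX (20 and 14). Neither difference exceeded the SD of the control libraries, and the exact permutation test of 2 against 2 libraries cannot give a two-sided p under 0.333. The mean of MTX minus that of control, -1 gene, became 2.5 without control 1 and -4.5 without control 2. When every list was shortened to its best 21228 intervals, control 1 had intervals at 4 of the genes (Kmt2c, Kmt2d, Ncoa6 and Dpy30). This setting was chosen after seeing the data, and fewer intervals enter it by construction.

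**Figure D2:**
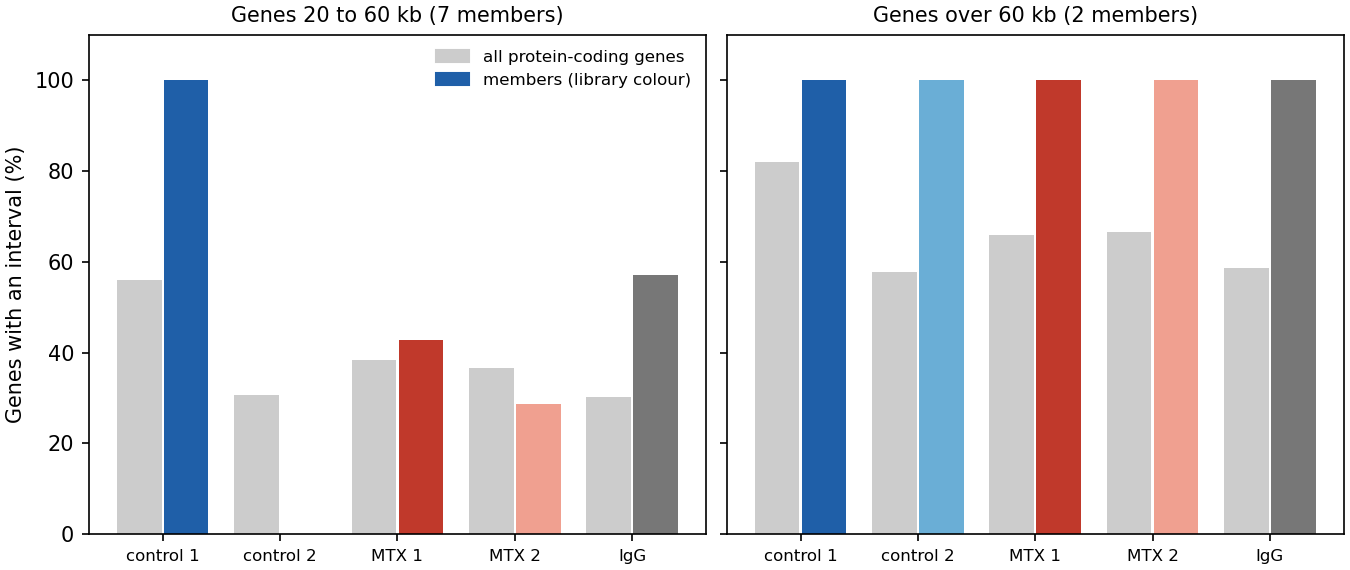
Percent of genes with an interval in their window (bars from 0) in each of the 5 libraries, for all protein-coding genes (grey, left bar of each pair) and for the genes of the set (library colour), at 20 to 60 kb (7 genes of the set) and over 60 kb (2 genes). At 20 to 60 kb the set lies at 7 of 7 in control 1 against 56% of all genes and at 0 of 7 in control 2 against 30.6%; over 60 kb it lies at 2 of 2 in every library.

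The intervals at these genes had a lower median fold than their whole list in each of the 5 lists. The median was 1.38 in control 1, 1.29 in control 2, 1.28 in MTX 1 and 1.34 in MTX 2, against 1.62, 1.39, 1.43 and 1.499 over all intervals. In IgG the median was 1.42 at the genes and 1.49 over all intervals. The deposited adjusted p, from the authors' Poisson test of each interval against its background, was under 0.05 for 26 of 35 intervals in control 1, 13 of 18 in control 2, 13 of 20 in MTX 1, 11 of 14 in MTX 2 and 20 of 22 in IgG. These shares were 74.3%, 72.2%, 65%, 78.6% and 90.9%. Over all intervals they were 84.9%, 78.5%, 78.7%, 83.7% and 83.7%. The share at the genes was thus lower in each KDM6A list and higher in IgG, but the IgG value rested on Kmt2c. All 15 IgG intervals at Kmt2c were under 0.05, against 1 of 2 at Ncoa6 and 1 of 2 at Rbbp5. Kdm6b, Wdr5 and Ash2l had 1 of 1 each. Of the 87 KDM6A intervals, 48 had a fold whose exact 95% binomial bounds, which cover counting error only, lay above 1. The matching share over all intervals was not computed, so this count is a description. A fold under 1 was found for 8 of the 87. Over all intervals 4.03% to 7.03% of each KDM6A list had a fold under 1. In the best 10% of their lists, a share set by definition, ranked 2 of the 35 intervals of control 1 and 2 of the 20 of MTX 1. They lay at Kmt2c and Ncoa6, and control 2, MTX 2 and IgG had none.

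**Figure D3:**
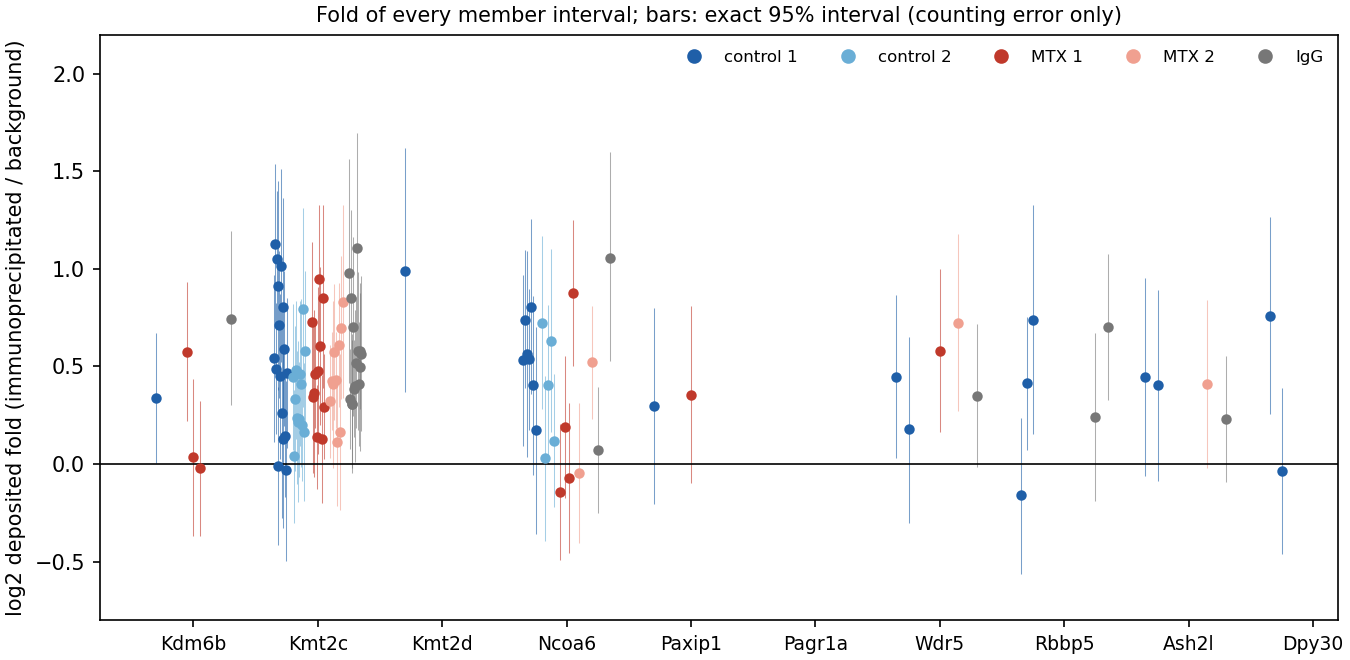
Deposited fold over background of every interval at the 10 genes, by gene and library, on a log2 axis where 0 is equal to background; points are single intervals and bars are exact 95% binomial bounds (counting error only). On the linear scale folds run from 0.895 at Rbbp5 to 2.18 at Kmt2c, and IgG points lie among those of the KDM6A libraries at Kmt2c.

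Kdm6b (chr11:69398508-69420367), the demethylase gene, had 1 interval in control 1, 3 in MTX 1, 1 in IgG and none in control 2 or MTX 2. The control 1 interval, at 69408001 to 69413400 inside the gene, had 151 immunoprecipitated and 158 background reads, a fold of 1.26 (bounds 1.00 to 1.59). The IgG interval lay within the same stretch, at 69408801 to 69411000, with 113 and 70 reads and a fold of 1.68 (1.23 to 2.29). The MTX 1 interval at 69408801 to 69411800 had 104 and 109 reads and a fold of 1.02 (0.775 to 1.35). Inside Kdm6b the nonspecific antibody thus had the highest fold of the 3 overlapping intervals, but the bounds of all 3 overlapped.

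The strongest MTX 1 interval in the Kdm6b window was at the low end of the gene, at 69395001 to 69398800, with 161 and 116 reads and a fold of 1.49 (1.17 to 1.91). Only 293 of its bases lay inside Kdm6b, and it also met the genes Cyb5d1, Naa38 and Tmem88. The third MTX 1 interval, at the high end (69417201 to 69420800), had 136 and 148 reads and a fold of 0.986. Pooled over the window, MTX 1 had a fold of 1.15 (0.999 to 1.33), and with its 1 interval of deposited adjusted p under 0.05 alone it was 1.49. Control and MTX cells each had intervals here in 1 of 2 libraries, so no difference between groups could be tested.

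Kmt2c (chr5:25271795-25498855, minus strand), 1 of the 2 methyltransferase genes, had the most intervals of the 10 genes: 16 in control 1, 13 in control 2, 11 in MTX 1, 10 in MTX 2 and 15 in IgG. They covered 23.6%, 23.8%, 21.9% and 20.9% of the window in the KDM6A libraries, in the same order, and 27.1% in IgG. Among 4161 genes over 60 kb, whose median covered share was 1.83% to 5.04%, Kmt2c lay at the 93.8, 96.0, 96.0, 92.7 and 97.2 percentile. Kmt2c was therefore densely covered for a long gene in all 5 libraries, most of all in IgG.

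The reads pooled over the Kmt2c intervals gave a fold of 1.45 in control 1 (1730 and 1583 reads, bounds 1.35 to 1.55) and 1.25 in control 2 (1876 and 1567 reads, 1.17 to 1.33). They gave 1.35 in MTX 1 (1757 and 1400 reads, 1.25 to 1.45) and 1.35 in MTX 2 (1780 and 1475 reads, 1.26 to 1.45). The IgG library had 1.41 (2392 and 1764 reads, 1.32 to 1.497). Both MTX values and the IgG value lay between the 2 control values.

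The intervals seldom fell on the same bases. Of the Kmt2c window, 91.7 kb was covered in 1 KDM6A library alone, 50.8 kb in 2, 3.60 kb in 3 and 2.40 kb in all 4, and 88.6 kb in none. The Jaccard index, shared over total covered bases, was 6.85% between the control libraries and 8.10% between the MTX libraries. Between a control and an MTX library it was 15.6% to 17.6%, and between a KDM6A library and IgG it was 13.1% to 25.6%. By this index, libraries of 1 group had less in common at Kmt2c than libraries of different groups, and the highest value was that of control 1 with IgG.

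In control 1 and MTX 1, the Kmt2c intervals of highest fold lay inside the gene and far from its start. In control 1, the interval at 25326601 to 25332200 had 185 and 118 reads and a fold of 2.07 (1.64 to 2.64), and the one at 25286801 to 25291600 had 137 and 83 reads and a fold of 2.18 (1.65 to 2.90). The first was overlapped by IgG, whose interval at 25324201 to 25331400 had 279 and 230 reads and a fold of 1.26. The second was overlapped by control 2 alone, with a fold of 1.03 at 25284201 to 25288600. In MTX 1 the strongest was at 25400401 to 25405800, with 169 and 94 reads and a fold of 1.93 (1.49 to 2.51). The highest IgG fold at Kmt2c was 2.16 (1.45 to 3.24), at 25416601 to 25418200 with 81 and 39 reads. In control 2 the highest was 1.74, at 25447001 to 25449600. In MTX 2 it was 1.78, at 25473801 to 25476000, with the midpoint 23883 bp from the start site.

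**Figure D4:**
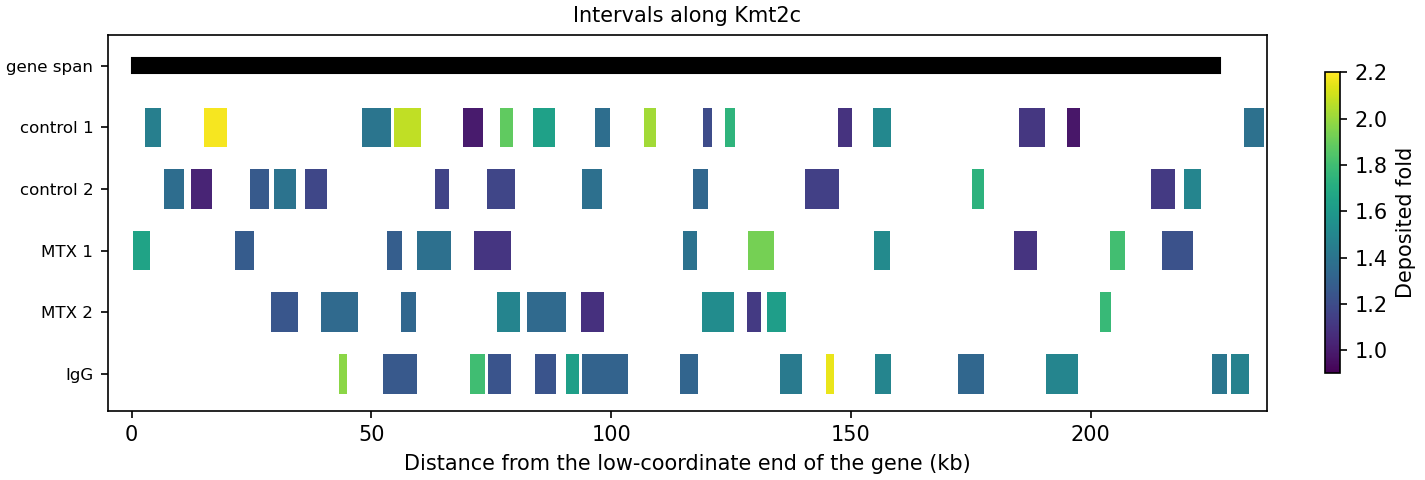
Intervals of the 5 libraries along the Kmt2c window, drawn to scale by distance in kb from the low-coordinate end of the gene, with colour for the fold; the start site is at the high end. Intervals are spread over the whole gene in every library, IgG included, and 1 interval, of IgG, covers the start site.

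Both MTX libraries, and neither control library, had intervals in 2 merged regions of Kmt2c. At 25400201 to 25408200 the pooled fold was 1.93 in MTX 1 and 1.37 in MTX 2, and an IgG interval at 25407001 to 25411600 (fold 1.43) overlapped the region. At 25473801 to 25479000 the folds were 1.81 and 1.78, and no IgG interval overlapped. There the MTX 1 interval (25475801 to 25479000) and the MTX 2 interval (25473801 to 25476000) shared only the bases 25475801 to 25476000. Their folds thus come from largely different bases. Both control libraries alone had 2 other Kmt2c regions, led by 25284201 to 25291600 with folds of 2.18 and 1.03. A missing interval is not a value of 0, so these regions were not tested. Over the 10 genes, 3 of 50 merged regions were in both control libraries alone (2 at Kmt2c and 1 at Ncoa6) and 2 in both MTX libraries alone. The matching shares over all merged regions were not computed, so these counts are descriptions.

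MTX could be compared with control by counts only where all 4 KDM6A libraries had an interval in 1 merged region. Such a region joins touching or overlapping intervals, so its libraries need not share bases. Of 50 merged regions at the 10 genes, 28 were in 1 library (56%), 16 in 2, 3 in 3 and 3 in all 4 (6%). Over all 82424 regions 75.8% were in 1 library and 2.59% in all 4. Without Kmt2c, 23 of 29 merged regions at the genes were in 1 library (79.3%), 4 in 2, 2 in 3 and 0 in all 4. The 3 regions of all 4 libraries were all in Kmt2c, and an IgG interval overlapped each. Over the whole lists, 1601 of 2132 regions of all 4 libraries (75.1%) overlapped an IgG interval. The edgeR quasi-likelihood test, with the background reads of the same intervals as offset and Benjamini-Hochberg adjustment, called 0 of 2132 such regions (0%), with 83 at an unadjusted p under 0.05. It called 3 without control 2 and 1 with the replicate number as a block. DESeq2 also called 0, with 52 at an unadjusted p under 0.05.

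At the Kmt2c region 25319801 to 25338400 the log2 change, MTX minus control, was -0.12 ± 0.24 (SE), at 25340801 to 25352800 it was 0.08 ± 0.26, and at 25386801 to 25397600 it was 0.08 ± 0.31. The adjusted p was 1.00 for each (edgeR). Each SE was larger than its change, so the sign of the change was not resolved with 2 libraries a group. In the region from 25319801 the control 2 interval (25335001 to 25338000) and the MTX 2 interval (25328001 to 25331000) shared no base. In the region from 25386801 the MTX 1 interval (25386801 to 25389600) shared none with control 1 or MTX 2. These 2 changes thus compare partly different bases. The change at 25319801 to 25338400 turned to 0.20 without control 1.

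Kmt2d (chr15:98831669-98874077, minus strand), the other methyltransferase gene, had a single interval over the 5 lists. It was in control 1, at 98830601 to 98832000, with 57 and 38 reads, a fold of 1.98 (1.29 to 3.07) and a deposited adjusted p of 2.6e-06 (Poisson test). The interval lay at the end of the gene opposite its start site, 332 of its 1400 bases were inside Kmt2d, and it also met the neighbouring gene Prkag1. Kmt2c had 10 or more intervals in every library, but it is 227 kb long against 42.4 kb for Kmt2d.

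Ncoa6 (chr2:155390656-155473911, minus strand) encodes a large coactivator subunit. It had 7 intervals in control 1, 5 in control 2, 4 in MTX 1, 2 in MTX 2 and 2 in IgG, which covered 24.4%, 18.0%, 17.8%, 10.1% and 7.29% of its window. Among the 4161 genes over 60 kb, this put Ncoa6 at the 94.3, 92.5, 93.6, 78.2 and 76.1 percentile in the same order. The pooled fold was 1.48 in control 1 (691 and 618 reads, 1.33 to 1.65) and 1.27 in control 2 (573 and 470 reads, 1.12 to 1.44). It was 1.15 in MTX 1 (537 and 499 reads, 1.02 to 1.31), 1.23 in MTX 2 (350 and 319 reads, 1.05 to 1.44) and 1.28 in IgG (256 and 208 reads, 1.06 to 1.54). Both control folds were above both MTX folds, but control 1 and MTX 1 were the only pair of libraries whose bounds did not overlap. This order did not hold over intervals with a deposited adjusted p under 0.05 (Poisson test), where the fold was 1.52 in control 1, 1.49 in control 2, 1.83 in MTX 1, 1.44 in MTX 2 and 2.08 in IgG.

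At Ncoa6 control 2 lay apart from the other libraries. It shared no base with either MTX library or with IgG and 1.80 kb with control 1, a Jaccard index of 4.76%. The MTX libraries shared 7.20 kb with each other (38.3%), and control 1 shared 6.80 kb with MTX 1 (20.9%) and 4.60 kb with MTX 2 (16.7%). Both control libraries alone had an interval at 155386401 to 155391400, with folds of 1.45 and 1.65, at the low end of the gene where it also met Trp53inp2.

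Control 1 and both MTX libraries, but not control 2, had intervals in 2 regions between 155456201 and 155467800. In the first, at 155456201 to 155460800, control 1 had 99 and 75 reads (fold 1.75, 1.28 to 2.39), MTX 1 had 109 and 123 reads (0.951, 0.728 to 1.24) and MTX 2 had 122 and 141 reads (0.970, 0.755 to 1.24). In the second, at 155461601 to 155467800, control 1 had a fold of 1.32 (0.962 to 1.82), MTX 1 of 1.83 (1.42 to 2.38) and MTX 2 of 1.44 (1.17 to 1.76). An IgG interval in the second region (155463601 to 155465800, 92 and 46 reads) had a fold of 2.08 (1.44 to 3.02), while none was in the first. Control 1 had the highest KDM6A fold in the first region and the lowest in the second, where the bounds overlapped. These regions were picked after their values were seen, and with no interval in control 2 the groups were not tested.

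**Figure D5:**
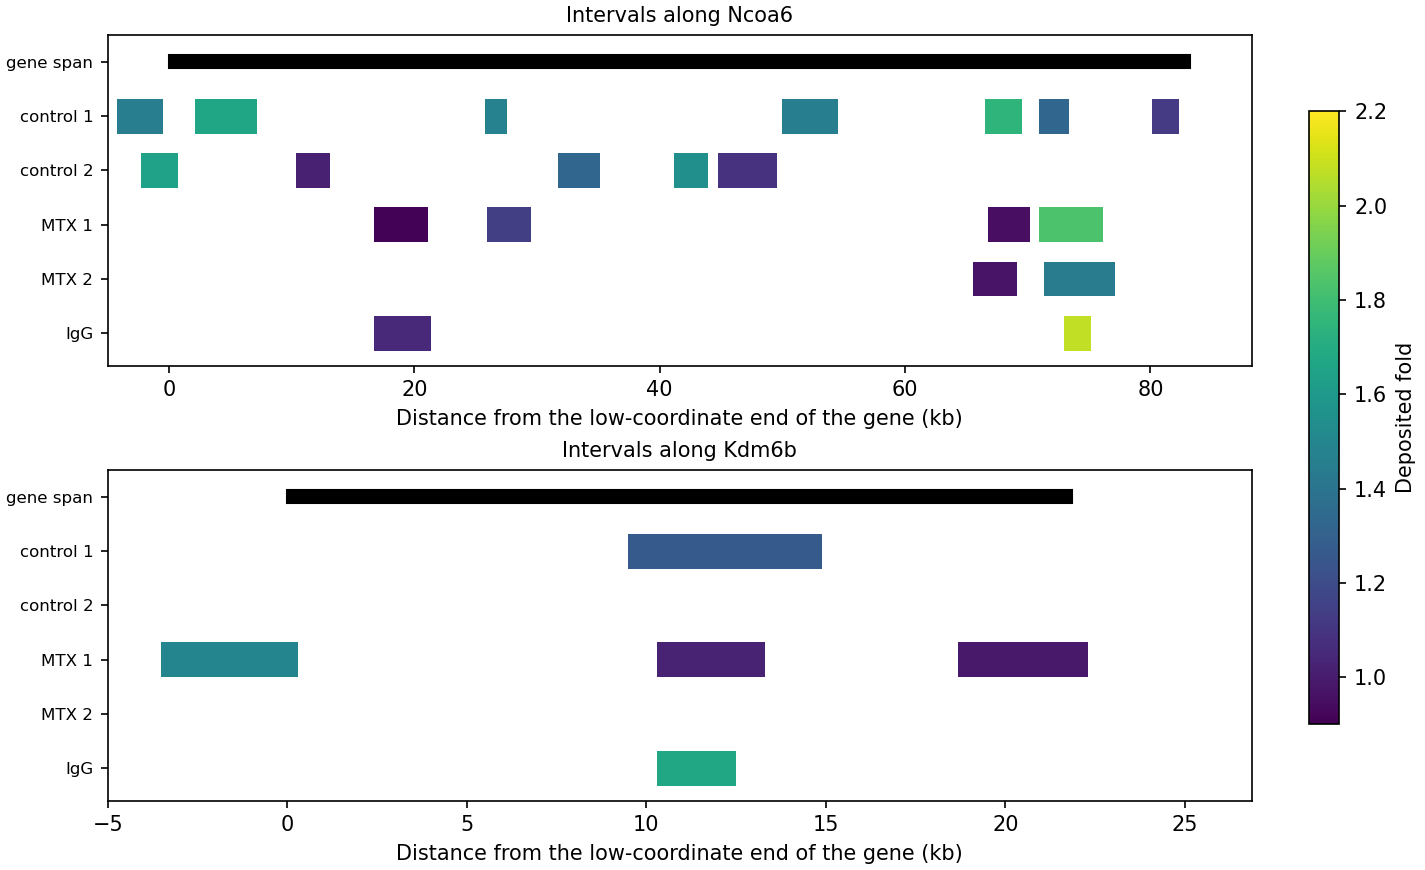
Intervals of the 5 libraries along the Ncoa6 and Kdm6b windows, drawn to scale by distance in kb from the low-coordinate end of each gene, with colour for the fold. Control 2 has 5 intervals at Ncoa6 and none at Kdm6b, and its Ncoa6 intervals share bases with control 1 alone.

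Paxip1 (chr5:27740080-27791672, minus strand), a subunit with BRCT domains, had 1 interval in control 1 and 1 in MTX 1, and none elsewhere. The control 1 interval, at 27780601 to 27782600, had 67 and 72 reads and a fold of 1.23 (0.869 to 1.74), and the MTX 1 interval, at 27776601 to 27779800, had 93 and 78 reads and a fold of 1.28 (0.937 to 1.75). The 2 intervals did not overlap, both were inside the gene, and the bounds of both took in 1, while the deposited adjusted p was 0.0494 and 0.013 (Poisson test). Pagr1a (chr7:127015051-127017352, minus strand), which encodes the partner of PAXIP1, had no interval in any list.

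Wdr5 (chr2:27515147-27536535, plus strand), a core subunit, had intervals in 4 lists. MTX 1 had 117 and 84 reads at 27513801 to 27516600, over the start site, a fold of 1.49 (1.12 to 2.00). Control 1 had 100 and 97 reads at 27516401 to 27520000, which overlapped it by 200 bp, with a fold of 1.36 (1.02 to 1.82). MTX 2 had 103 and 70 reads further inside the gene, at 27530001 to 27533000, with a fold of 1.65 (1.21 to 2.27). Control 1 also had an interval beyond the high end, at 27541001 to 27543200 (fold 1.13), which an IgG interval of fold 1.27 overlapped. The 2 MTX intervals at Wdr5 overlapped no IgG interval and lay in different places, and control 2 had none.

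Rbbp5 (chr1:132477348-132505665, plus strand), another core subunit, had 3 intervals in control 1, 2 in IgG and none in control 2 or either MTX library. The control 1 folds were 0.895, 1.33 and 1.67, the last of them beyond the gene where it met Cntn2. The IgG intervals had folds of 1.18 at the start site and 1.62 inside the gene. Pooled, control 1 had a fold of 1.20 (1.02 to 1.41) and IgG of 1.42 (1.17 to 1.72), with overlapping bounds and the higher value in IgG.

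Ash2l (chr8:25816000-25847694) had 2 intervals in control 1 with folds of 1.36 and 1.32, the first of them outside the gene where it met Star. MTX 2 had 1 with a fold of 1.33 (102 and 86 reads) and IgG had 1 with a fold of 1.17 (172 and 152 reads), and none of the 4 overlapped another. Dpy30 (chr17:74299474-74323944, minus strand) had 2 intervals in control 1 alone. The one beyond its low end, at 74295201 to 74298200, had 78 and 61 reads and a fold of 1.69 (1.19 to 2.40) and met Memo1. The one over its inner start sites, at 74315401 to 74318400, had 82 and 111 reads and a fold of 0.977 (0.725 to 1.31). Dpy30 thus had no interval inside the gene with more scaled reads than background.

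Overlap with the IgG list was common and uneven. Of the intervals at the 10 genes, 12 of 35 in control 1 overlapped an IgG interval (34.3%, exact Clopper-Pearson 95% interval 19.1 to 52.2), 5 of 18 in control 2 (27.8%, 9.69 to 53.5), 8 of 20 in MTX 1 (40%, 19.1 to 63.9) and 7 of 14 in MTX 2 (50%, 23.0 to 77.0). The shares over all intervals were 18.4%, 25.6%, 24.9% and 23.2%. The bounds treat intervals as independent, although 16 of the 35 in control 1 lay at 1 gene, Kmt2c. Kmt2c held most of the overlap with IgG: without Kmt2c the shares were 15.8% in control 1, 0 of 5 in control 2, 33.3% in MTX 1 and 25% in MTX 2. The only IgG library came from MTX cells, and in 52 of 52 intervals with the same bounds it had the same background reads as MTX 1, so these 2 lists were not independent.

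Of 12 other genes of the H3K4 methyltransferase complexes, 7 had an interval in control 1, 3 in control 2, 5 in MTX 1, 1 in MTX 2 and 3 in IgG. Of all genes, 47.1%, 26.1%, 33.5%, 30.8% and 27.5% had one in the same order. Of genes of 20 to 60 kb, 56%, 30.6%, 38.4%, 36.5% and 30.2% had one. The median length over the list was 23.5 kb, and Hcfc1, on X, had no interval in any library. The genes of this list with an interval in at least 3 libraries were Setd1b, Psip1, Hcfc2 and Bod1. Psip1, a chromatin reader of 30.8 kb, had pooled folds of 1.32 in control 1, 1.79 in control 2, 1.24 in MTX 1 and 1.31 in IgG. Setd1b, a methyltransferase of the same family of complexes, had a pooled fold of 1.38 in control 1, with 0.985 in MTX 1 and 1.00 in IgG. Bod1 had 1.23 in control 1, 1.23 in control 2 and 0.99 in MTX 1. Hcfc2, at 96.9 kb, had 1.32 in control 1, 1.53 in MTX 1, 1.31 in MTX 2 and 1.23 in IgG.

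Of 12 relatives and cofactors of KDM6A, 8, 6, 8, 8 and 7 had an interval in the same order of libraries. These were autosomal genes with a median length of 79.1 kb over the list, and Kdm6a, Uty, Kdm5c and Kdm5d on X and Y had none in any list. Among all genes over 60 kb, 82%, 57.8%, 65.9%, 66.5% and 58.6% had an interval in these libraries, and among all genes 47.1%, 26.1%, 33.5%, 30.8% and 27.5%. The named ones were Ep300, Crebbp, Kdm1a, Kdm5a, Kdm5b, Smarca4, Smarcc1 and Arid1a. Ep300, an acetyltransferase of enhancers, had folds of 1.26, 1.00, 1.31 and 1.32 in the KDM6A libraries and 1.22 in IgG. Crebbp, its relative, had 1.30, 1.70, 1.32 and 1.26 in those libraries and 1.51 in IgG. Smarcc1, a subunit of the SWI/SNF remodelling complex, had the most intervals of the list in control 1, with 9, and 4, 7, 3 and 2 in control 2, MTX 1, MTX 2 and IgG.

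By the distance between log2 pooled folds, among genes with intervals in exactly the same libraries, genes most like Kmt2c over 5 libraries included Cep112 (distance 0.034) and Spop (0.072). Those most like Ncoa6 were Camk1d (0.083), Ambra1 (0.12) and Ipo7 (0.13), out of the same 2386 genes with intervals in all 5. For Wdr5, over 4 libraries, they were Tnip3 (0.12), Cep126 (0.12) and Mtf2 (0.14). For Kdm6b, over 3 libraries, they were B4galt6 (0.051), Dscc1 (0.13) and Gk5 (0.13), and for Ash2l, also over 3, they were Prmt7 (0.096), Ctsk (0.10) and Malsu1 (0.14). With so few libraries many genes lie close, and the distances are descriptions.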

How the data were processed

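Interval lists of 4 KDM6A libraries and 1 IgG library from 9 samples were analysed. Groups and replicate numbers came from the sample titles. The submitters' processing notes name Bowtie2 and the mm10 build, without a version. What called the intervals was not given in the sources used here. Per the labels' protocols, amplification took 30 cycles. Each deposited list was called on 1 library and had 8 columns, on a 200 bp grid. The deposited counts are whole reads of the immunoprecipitation and of a background library per interval, not normalized. The deposited fold is their ratio times 1 constant per list (1.04 to 1.32). The deposited p-value matched a Poisson upper tail, with the scaled background as mean, in 100% of intervals above fold 1 (tolerance 0.01 on the log10 scale), and an adjusted p-value stood beside it.

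All intervals were kept, with coordinates counted from 1. Pooled folds are summed immunoprecipitated over summed background reads times the constant, with exact binomial bounds. Touching or overlapping KDM6A intervals were joined into merged regions. Regions of all 4 libraries were tested with edgeR 4.0.16 (quasi-likelihood, Benjamini-Hochberg adjustment) in R 4.3.3, with DESeq2 1.42.0 as alternative, and the code was tested on simulated data. Other margins, thresholds, overlaps, left-out libraries and a replicate block were tried. All 10 genes are named. Genes of the other lists are named where at least 3 libraries had an interval, neighbours where an interval met them, and the 3 nearest genes by fold where a gene had intervals in at least 3 libraries. A gene that this rule takes in is not reported here. The members and lists were chosen with earlier results of these data known. The gene table gives spans without exons, so exons, introns and untranslated regions were not analysed here.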

Additional observations from a re-analysis of the deposited data

How the results depend on the processing

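The number of the 10 genes with an interval stayed within 1.5 times its value in 32 of 39 recomputed counts. Windows within 1 kb of either gene end gave 2 genes in control 1, 1 in control 2, 3 in MTX 1, 0 in MTX 2 and 2 in IgG. In control 1 the better 50% of the list gave 4 genes, and so did lists of equal length, which was chosen after seeing the data; fewer intervals enter both by construction. The mean of MTX minus the mean of control libraries was -1 gene, and -1 with the replicate block. It changed sign in some settings, with a range of -4.5 to 2.5 when 1 library was left out and 1.5 with lists of equal length. Pooled folds stayed within their counting bounds in 94 of 103 recomputed values. Without Kmt2c, also chosen after seeing the data, the share of intervals that overlapped IgG was 15.8% in control 1 and 0% in control 2. The edgeR count of changed regions was 1 with the replicate block, and 0 to 3 when 1 library was left out, with the 3 found without control 2; the cause was not tested. Deviations of same-numbered libraries correlated at 0.0047 over regions, and the main fit had no block. This value cannot show whether these libraries shared cultures or days, which the labels do not say. Of the 3 Kmt2c regions, the log2 change at 25319801 to 25338400 ranged from -0.35 to 0.20 with 1 library left out. At 25340801 to 25352800 it ranged from -0.14 to 0.29, and it was -0.056 with no offset and TMM scaling. The cause of these changes of sign was not tested. The median interval held 79 to 130 immunoprecipitated reads, which sets the width of the counting bounds, and the part of depth in the other values was not tested.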
